A study of Mus musculus with 12 samples.

Results

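The scavenger receptors are a structurally mixed set of cell surface and lysosomal proteins through which macrophages bind and take up modified lipoproteins, dead cells, microbes and worn matrix. The 10 genes followed here were chosen by name, with earlier results of these data known. They are Cd36, Scarb1 and Scarb2 of class B, Msr1, Marco and Colec12 of class A, Olr1 of class E, Stab1 of class H, Cd68 of class D and Cd163 of class I. All 10 were among the 14098 genes of the deposited table and all 10 passed the filter on low values (at least 1 TPM in at least 2 libraries), as did 11194 genes in all. TPM, an abundance unit for transcripts, divides the reads of a gene by its length and scales each library to the same total, so that levels of different genes can be set side by side.

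RNA came from bone marrow-derived macrophages (BMDM) of male and female C57Bl/6 mice aged 8 to 10 weeks, which were differentiated with L929-conditioned medium and encapsulated in a 3D hydrogel of collagen and hyaluronic acid. The soft group stayed in the soft matrix, the soft+IL-4 group received the cytokine IL-4 in the soft matrix, and the stiff group was in a hydrogel with more collagen and the photoinitiator Irgacure that was stiffened by UV light 24 h after encapsulation. Cells were cultured for 48 h after stiffening and were released with collagenase IV, a step that all groups share. Each condition was set up with BMDM of WT mice and of mice with a germline deletion of Camkk2 (Camkk2-/-, labelled KO), which lack the gene in every cell and not in macrophages alone, and each of the 6 groups holds 2 libraries. The labels call these biological replicates but do not give the animals behind each library, so p-values measure the spread between these libraries. UV light, photoinitiator and collagen content change together with stiffness and cannot be told apart from it.

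In background, scavenger receptors recognise mostly polyanionic ligands such as oxidised LDL, and several also take up native lipoproteins, haemoglobin complexes or hyaluronan. In macrophages their balance bears on cholesterol loading, on clearance of apoptotic cells and on the handling of matrix fragments. IL-4 is the classical signal for alternative activation, in which STAT6 and the nuclear receptor PPARγ act together, and Cd36 is a known target of that pathway.

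The deleted gene was measured first. Camkk2 TPM was 44.2 and 11.7 in the pair of WT soft libraries, 30.5 and 29.8 in WT soft+IL-4, 23.3 and 23.7 in WT stiff, 46.6 and 11.5 in KO soft, 11.5 and 8.54 in KO soft+IL-4 and 37.7 and 10.0 in KO stiff. It thereby contradicted the label of 3 libraries, KO soft 1, KO stiff 1 and WT soft 2. These libraries were kept where their labels put them. The main comparisons average the difference over both labelled genotypes, so that their fold changes do not depend on which soft or stiff library is WT or KO, and each count is also given without these 3 doubted libraries. All 7 markers of macrophages were present in every condition, with a summed level of 49662 to 55998 TPM in the soft, 21601 to 23529 TPM in the soft+IL-4 and 21794 to 46528 TPM in the stiff libraries. Markers of other cell types summed to far less, at most 26.2 TPM for neutrophils, 3.38 TPM for B cells, 1.97 TPM for mast cells or basophils and 0.755 TPM for fibroblasts, while 0 of 6 erythroid markers were in the table. Dendritic cell markers summed to 4.48 to 8.56 TPM in the soft, 9.84 to 12.8 TPM in the soft+IL-4 and 7.54 to 20.8 TPM in the stiff libraries, and endothelial markers to 2.92 to 5.29, 3.51 to 5.10 and 3.92 to 12.8 TPM. Of the defining markers, 1 of mast cells or basophils was listed at 0 in all 4 soft libraries, and Ly6g, Camp, Ighm, Tek and Lum were not among the genes analysed here. In bulk RNA, fewer cells of a type and less RNA per cell cannot be told apart.

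The promoters of 3 members are shown because these genes had the largest shifts with IL-4: Cd36 and Olr1, which rose, and Stab1, which fell. Each is the 250 bases before the transcription start of RefSeq (GRCm38.p6), read 5′ to 3′ on the minus strand, on which all 3 genes lie. In GENCODE (GRCm38) Cd36 spans chr5:17781690-17888801, Olr1 chr6:129485244-129507165 and Stab1 chr14:31139013-31168641. The windows are chr5:17835897-17836146 for Cd36, chr6:129507166-129507415 for Olr1 and chr14:31168642-31168891 for Stab1. That of Cd36 lies inside the GENCODE span of the gene and serves only 1 of its starts. Capitals mark matches, on either strand, to the 6 motifs searched: the nuclear receptor site AGGTCA, the STAT6 site (TTC and GAA with 4 bases between), the TPA response element TGANTCA, the MAF core TGCTGA, the PU.1 core GAGGAA and the E-box CACGTG.
Cd36: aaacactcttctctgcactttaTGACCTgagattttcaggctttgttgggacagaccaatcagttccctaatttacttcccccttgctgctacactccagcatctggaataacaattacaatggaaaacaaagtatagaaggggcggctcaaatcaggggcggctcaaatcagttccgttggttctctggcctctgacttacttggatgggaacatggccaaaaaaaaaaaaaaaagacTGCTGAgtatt
Olr1: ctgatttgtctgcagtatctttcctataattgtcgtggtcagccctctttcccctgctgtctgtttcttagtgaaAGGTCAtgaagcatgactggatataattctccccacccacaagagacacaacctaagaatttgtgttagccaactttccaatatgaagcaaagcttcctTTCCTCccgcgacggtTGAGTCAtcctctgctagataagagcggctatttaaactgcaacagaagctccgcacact
Stab1: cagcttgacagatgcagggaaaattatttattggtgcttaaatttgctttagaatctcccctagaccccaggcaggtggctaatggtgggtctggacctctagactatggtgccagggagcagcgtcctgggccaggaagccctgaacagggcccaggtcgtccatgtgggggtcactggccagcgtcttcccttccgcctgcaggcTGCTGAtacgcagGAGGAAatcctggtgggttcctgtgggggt
Cd36 held the nuclear receptor letters in reverse 228 to 223 bases before its start and the MAF core 11 to 6 bases before it. Olr1 held the nuclear receptor letters 175 to 170 bases, the PU.1 core in reverse 76 to 71 bases and the TPA response element 60 to 54 bases before its start. Stab1 held the MAF core 43 to 38 bases and the PU.1 core 30 to 25 bases before its start. Of 32851 such windows in the table, 14.02% hold the nuclear receptor site, 5.85% the STAT6 site, 6.75% the TPA response element, 16.1% the MAF core, 23.3% the PU.1 core and 6.02% the E-box. Windows were found for 7 of the 10 members, among which Marco held the PU.1 core, Scarb2 the MAF core, Cd68 the TPA response element at 2 positions with the PU.1 core, and Cd163 none of the 6 motifs. Neither the STAT6 site nor the E-box was matched in any of the 7 windows. A match describes letters and is not evidence of binding. Msr1, Scarb1 and Colec12 have no window in the table.

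The levels of the members spanned more than 3 orders of size on the log10 scale. Cd68, a lysosomal glycoprotein, and Cd36, the fatty acid and oxidised LDL receptor, led in every library, with levels above those of 99.3% to 99.5% and of 97.5% to 99.0% of the listed genes. Msr1, Scarb1, Scarb2 and Stab1 followed at between 22.0 and 145 TPM, and Colec12 at 10.3 to 22.6 TPM. Olr1, Marco and Cd163 stayed at or below 3.84 TPM in all 12 libraries, where fold changes on the log2(TPM + 1) scale understate the change. The 10 genes together took 2482 to 3520 TPM, or 0.248% to 0.352% of a library, and Cd68 supplied 59.5% to 73.5% of this sum and Cd36 15.3% to 32.9%. Olr1 passed the filter only through soft+IL-4 and WT stiff libraries, Marco only through soft and KO stiff libraries, and Cd163 only through WT soft+IL-4 1 and WT stiff 1.

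The first comparison asks what IL-4 does to these genes in the soft matrix. Cd36 and Olr1 rose and 6 members fell, of which Stab1 fell most, while Cd163 and Cd68 did not pass the test. Of the 10 members, 8 were past an adjusted p of 0.05 (limma on all 11194 genes, Benjamini-Hochberg adjustment, 4 libraries against 4), where 22.9% of all tested genes were. The 8 include Olr1 and Marco, which entered the test through the libraries in which they are high, so their calls are no independent support. The called members that reached the filter in every condition are Cd36, Msr1, Stab1, Scarb1, Scarb2 and Colec12. By direction, 2 members rose against 9.84% of all genes, and 6 fell against 13.1%. The median log2 fold change was -0.41 over the members and -0.05 over all tested genes. Without the 3 doubted libraries, the count of 8 was 3, namely Stab1, Scarb1 and Colec12, and with an absolute fold change of 1 or more on the log2 scale asked as well it was 3 (Cd36, Olr1 and Stab1), against 4.35% of all genes. All 7 macrophage markers also fell with IL-4, with a median log2 fold change of -1.0, and their part in the fall of the 6 members was not tested.

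Cd36 was at 402 and 507 TPM in WT soft, 814 and 890 in WT soft+IL-4, 408 and 556 in KO soft, and 1084 and 1158 in KO soft+IL-4. All 4 libraries with IL-4 thus lay above all 4 without it, with means of 987 ± 161 TPM and 468 ± 76.0 TPM (SD, n = 4). Groups failed to overlap in this way for 8 members and for 36.9% of all tested genes. The log2 fold change was 1.07 (SE 0.229, adjusted p = 0.00889 by limma), and 1.05 without the 3 doubted libraries (adjusted p = 0.106). Cd36 takes up long-chain fatty acids and oxidised LDL, and it had the highest mRNA level of the members that act at the cell surface.

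Olr1 encodes LOX-1, an oxidised LDL receptor of the C-type lectin fold. Its level was 0.457 and 0.398 TPM in WT soft, 3.84 and 1.93 in WT soft+IL-4, 0.656 and 0.336 in KO soft, and 1.98 and 2.10 in KO soft+IL-4. The groups did not overlap, although the top value, in WT soft+IL-4 1, was 1.99 times that of its replicate. The log2 fold change was 1.22 (SE 0.202, adjusted p = 0.00242 by limma), and 1.28 without the 3 doubted libraries (adjusted p = 0.0576). Since Olr1 passed the filter only through groups in which it is high, its call there is no independent support, and in the fit of all 14098 genes with no filter its adjusted p was 0.0021.

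Stab1 encodes stabilin-1, a sorting and clearance receptor that takes up acetylated LDL and secreted matrix proteins. It was listed at 77.1 and 139 TPM in WT soft, 22.8 and 22.0 in WT soft+IL-4, 77.2 and 140 in KO soft, and 28.8 and 28.3 in KO soft+IL-4. The 4 libraries with IL-4 lay close together at 25.5 ± 3.56 TPM, whereas the soft libraries fell into 2 levels, the libraries numbered 1 near 77 TPM and those numbered 2 near 140 TPM. Camkk2 was at 44.2 and 46.6 TPM in the soft libraries numbered 1 and at 11.7 and 11.5 TPM in those numbered 2. Library number and Camkk2 level cannot be told apart there. In the limma fit Stab1 fell by 2.0 (log2 units, SE 0.270, adjusted p = 0.000781), the largest shift of any member on the log2(TPM + 1) scale. That scale understates changes at low levels such as that of Olr1. Mean TPM went from 108 to 25.5 for Stab1 and from 0.462 to 2.46 for Olr1. The exons of Stab1 overlap those of Nt5dc2 on the opposite strand, and the sources used here do not say whether quantification used strand. Nt5dc2, named for this overlap after its values were seen, stood at 63.9 to 82.1 TPM in the soft and 22.9 to 26.5 TPM in the soft+IL-4 libraries, and fell by 1.57 (adjusted p = 0.000935). Without strand, reads of the overlap cannot be told apart between the genes.

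Among the other class B genes, Scarb1 (chr5:125277087-125341094, minus strand), the HDL receptor that moves cholesteryl esters, was at 75.2 and 91.1 TPM in WT soft, 49.6 and 48.1 in WT soft+IL-4, 73.4 and 86.6 in KO soft, and 55.5 and 52.7 in KO soft+IL-4. In the limma fit it fell by 0.65 (log2 units, SE 0.0935, adjusted p = 0.00109). Scarb2, the lysosomal receptor that carries β-glucocerebrosidase, was at 64.2 and 68.9, 57.6 and 48.6, 74.6 and 73.7, and 52.3 and 50.9 TPM in the same 4 groups. Both genes had every library with IL-4 below every library without it, with a smaller shift for Scarb2, which fell by 0.42 (SE 0.0768, adjusted p = 0.00401, and 0.111 without the 3 doubted libraries).

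The class A receptors are collagen-like trimers that bind acetylated LDL, bacteria and, for Colec12, sugars. Msr1 was at 114, 124, 114 and 145 TPM in the 4 soft libraries and at 86.1, 89.2, 106 and 91.5 TPM in the 4 soft+IL-4 libraries. Colec12, on chromosome 18, was at 20.1, 20.004, 16.9 and 22.6 TPM without and 14.4, 12.1, 11.8 and 11.5 TPM with IL-4. Marco was at 1.28, 1.80, 1.27 and 2.29 TPM without and 0.755, 0.469, 0.915 and 0.804 TPM with IL-4. In each of the 3 genes, all libraries with IL-4 were lower than all those without. Msr1 fell by 0.41 (SE 0.0946, adjusted p = 0.0131), Colec12 by 0.64 (SE 0.116, adjusted p = 0.00395) and Marco by 0.61 (SE 0.177, adjusted p = 0.0361) on the log2 scale in the limma fit. Marco passed the filter only through soft and KO stiff libraries, in which it is high, so its call is no independent support. The calls of Msr1 and Marco rested on single libraries. That of Msr1 was lost without WT soft 2 (adjusted p = 0.0528), WT soft+IL-4 1 (0.0515) or KO soft+IL-4 2 (0.0580), and that of Marco without any 1 of 7 of the 8 libraries, KO soft 1 being the exception (adjusted p up to 0.122).

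Cd68 and Cd163, both used as macrophage markers, did not pass the test. Cd68 ranged only from 1813 to 1990 TPM in the soft and from 1824 to 2123 TPM in the soft+IL-4 libraries, with a log2 difference of 0.05 (95% confidence interval -0.12 to 0.21, adjusted p = 0.694 by limma). Cd163, which clears complexes of haemoglobin and haptoglobin, was at 0.266 to 0.753 TPM without and 0.654 to 1.05 TPM with IL-4, and its interval of -0.17 to 0.65 leaves either direction possible (adjusted p = 0.382).

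**Figure D1:**
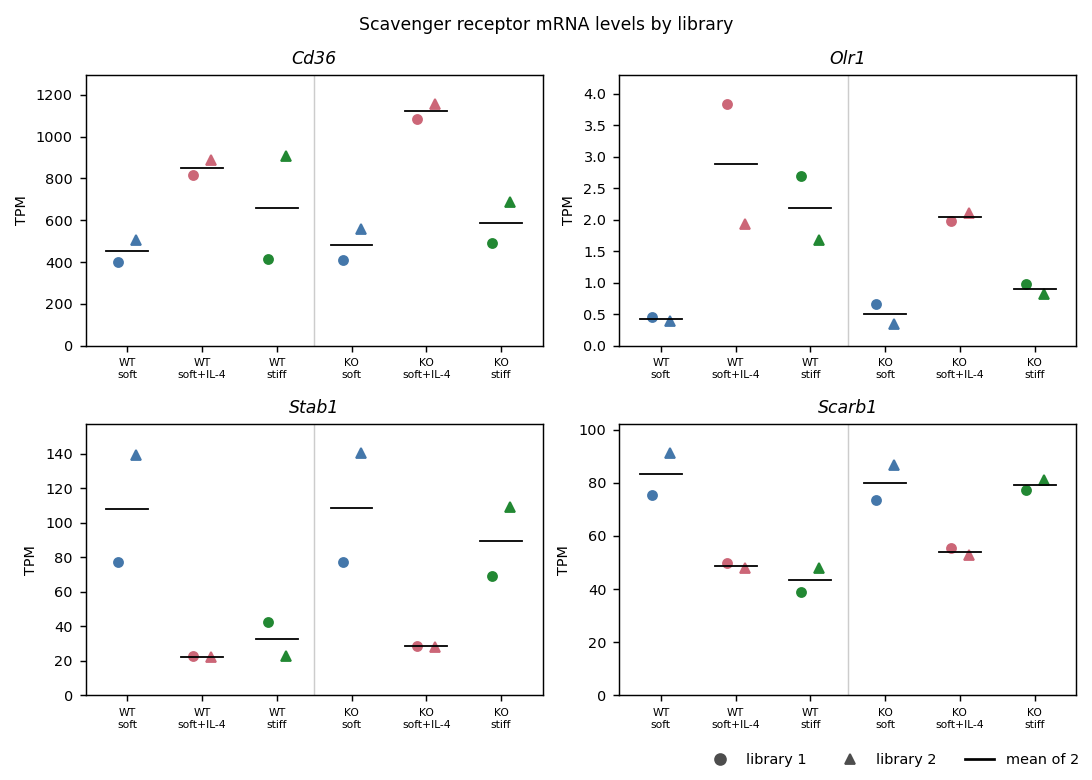
Levels in TPM (vertical axes, from 0) of Cd36, Olr1, Stab1 and Scarb1 in the 6 groups (horizontal axes), with a circle for library 1, a triangle for library 2 and a line for the mean of both. The soft+IL-4 libraries sit above the soft libraries for Cd36 and Olr1 and below them for Stab1 and Scarb1, and the pair of WT stiff libraries lies at 412 and 909 TPM for Cd36.

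**Figure D2:**
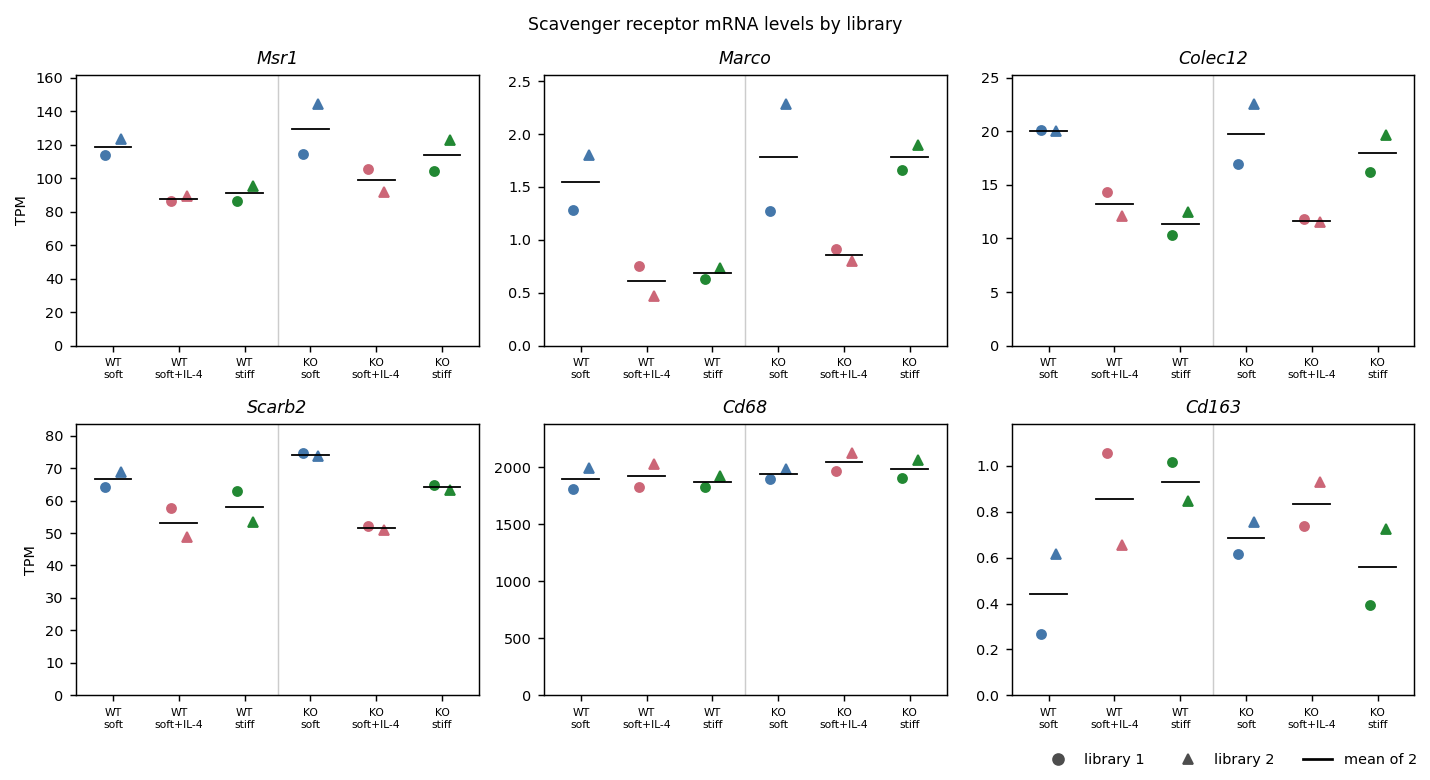
Levels in TPM (vertical axes, from 0) of Msr1, Marco, Colec12, Scarb2, Cd68 and Cd163 in the 6 groups, with a circle for library 1, a triangle for library 2 and a line for the mean of both. Cd68 stays between 1813 and 2123 TPM throughout, whereas the 3 class A genes Msr1, Marco and Colec12 are lower in the soft+IL-4 than in the soft libraries of both labelled genotypes.

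The second comparison sets the stiff against the soft matrix. It shares the soft libraries with the IL-4 comparison, so the values of both stand side by side and are not counted as support for each other. Of the members, only Scarb1 passed the test with both labelled genotypes averaged, 1 of 10 where 6.47% of all tested genes did and 3.79% fell. Where an absolute log2 change of 1 or more was asked as well, 0 members passed against 1.35% of all genes. Its level was 38.8 and 47.9 TPM in WT stiff and 77.1 and 81.0 TPM in KO stiff, and fell by 0.47 in log2 units (SE 0.0935, adjusted p = 0.0187 by limma). The 4 stiff libraries, at 61.2 ± 21.0 TPM, therefore fall apart by labelled genotype, and those of KO lay within the soft range of 73.4 to 91.1 TPM. The call was lost without KO soft 2, KO stiff 1, KO stiff 2 or WT soft 2 (adjusted p of 0.0545 to 0.0846), and without the 3 doubted libraries (-0.44, adjusted p = 0.296). The median log2 fold change was -0.24 over the members and 0.00 over all genes. Of the 7 macrophage markers, 4 also fell (Fcgr1, Cd14, Lyz2 and Adgre1), and their part in the result was not tested.

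The other 9 members missed the threshold in the averaged stiff comparison. In WT stiff Stab1 stood at 42.5 and 22.8 TPM and in KO stiff at 69.3 and 109 TPM, a log2 difference of -0.98 (SE 0.270, adjusted p = 0.0651). Colec12 was at 10.3, 12.4, 16.2 and 19.7 TPM in the same libraries (-0.45, adjusted p = 0.0536), and Olr1 at 2.68, 1.68, 0.981 and 0.820 TPM (0.74, adjusted p = 0.0618). Olr1 was the 1 member whose 4 stiff libraries all lay on one side of the 4 soft ones, an arrangement that 8.84% of all tested genes had. The 4 stiff libraries of Cd36 spread more widely than the means of the conditions lay apart, at 412 and 909 TPM in WT stiff and 491 and 686 TPM in KO stiff (0.36, adjusted p = 0.452). Msr1, Scarb2 and Marco had log2 values of -0.28, -0.20 and -0.28, with adjusted p of 0.126, 0.179 and 0.446. Cd163 and Cd68 had values of 0.16 and 0.00. Leaving out WT stiff 1 raised the count to 4, with Cd36 at 0.65 (adjusted p = 0.0191), Stab1 at -1.20 (0.0162) and Scarb2 at -0.26 (0.0389) beside Scarb1. Leaving out WT stiff 2 gave 3, with Colec12 at -0.51 (adjusted p = 0.0158) and Olr1 at 0.86 (0.0179).

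**Figure D3:**
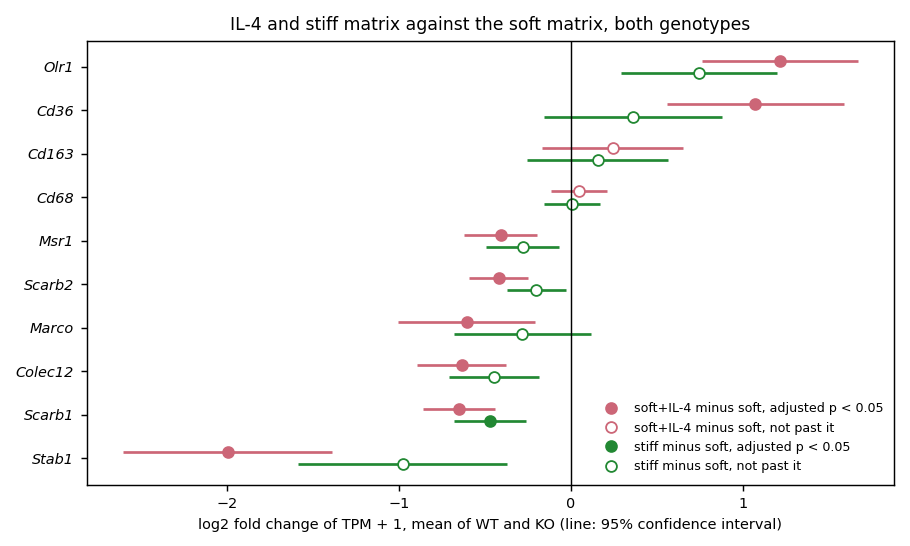
Log2 fold change of TPM + 1 (horizontal axis) of each member for soft+IL-4 minus soft and for stiff minus soft, averaged over both labelled genotypes, with the 95% confidence interval as a line and a filled point where the adjusted p is under 0.05. With IL-4, 8 members are filled, from -2.0 for Stab1 to 1.22 for Olr1, and with the stiff matrix only Scarb1 is, at -0.47.

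Within the labelled genotypes, each comparison has 2 libraries against 2. In BMDM labelled WT, IL-4 gave 3 calls among the members (10.7% of all tested genes): Stab1 at -2.16, Scarb1 at -0.75 and Olr1 at 1.4, with adjusted p of 0.00724, 0.00724 and 0.0139 by limma. In BMDM labelled KO, IL-4 gave 5 calls (10.3% of all tested genes): Stab1 at -1.83, Colec12 at -0.70, Scarb1 at -0.55, Scarb2 at -0.51 and Cd36 at 1.23, with adjusted p from 0.0157 to 0.0426. With an absolute log2 change of 1 or more asked as well, 2 members were left in WT (Stab1 and Olr1, 3.76% of all genes) and 2 in KO (Stab1 and Cd36, 3.65%). Leaving out any 1 library brought these counts to between 0 and 2. The sets of calls differed, but the difference of the IL-4 effect between genotypes was called for 0 members and for 0% of all tested genes by limma, with 0 members at an unadjusted p under 0.05 (1.47% of all genes). The confidence intervals of that difference were wide, for Cd36 -0.71 to 1.35 and for Stab1 -0.89 to 1.54 on the log2 scale.

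The stiff matrix gave 4 calls in BMDM labelled WT, where 10.6% of all tested genes were called. Stab1 moved by -1.70 in log2 units (SE 0.382, adjusted p = 0.0217), Scarb1 of -0.93 (SE 0.132, adjusted p = 0.00245), Colec12 of -0.77 (SE 0.164, adjusted p = 0.0169) and Olr1 of 1.14 (SE 0.286, adjusted p = 0.0347). Olr1 entered the test through high groups that include WT stiff, and with no filter its adjusted p was 0.0282. None of these calls was made without the 3 doubted libraries, where the log2 values were -1.28 for Stab1, -0.79 for Scarb1, -0.77 for Colec12 and 1.11 for Olr1. None was made either when only the compared libraries entered the model, which leaves the fold changes as they were (adjusted p of 0.163 to 0.273), and without WT soft 2 alone the count was 1 (Scarb1). Stab1 and Olr1 were the 2 with an absolute log2 change of 1 or more, where 3.97% of all genes were called. Of the 7 macrophage markers, 5 also fell in WT stiff (Fcgr1, Cd14, Lyz2, Adgre1 and Csf1r, named for this count), with a median of -0.95 over the 7, and their part in the members' values was not tested. Cd36 turned on single stiff libraries, at 0.44 with both, 1.01 without WT stiff 1 (adjusted p = 0.0170) and -0.13 without WT stiff 2. The WT stiff libraries differed from each other by an SD of 0.673 over the log2 values of the tested genes, and WT stiff 2 was nearest to WT soft+IL-4 2, at 0.187.

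In BMDM labelled KO the stiff matrix gave 0 calls among the members by limma, where 0.0447% of all tested genes were called, and 0 at an unadjusted p under 0.05, where 2.64% were. Values ran from -0.26 for Stab1 to 0.35 for Olr1, and that of Scarb1 was -0.01 with a confidence interval of -0.31 to 0.28. Between labelled genotypes in the stiff matrix, Scarb1 was the 1 member called (4.93% of all tested genes), 0.86 higher on the log2 scale in KO (SE 0.132, adjusted p = 0.00692). This is short of a log2 change of 1, a limit that 0 members and 1.98% of all genes passed. Of the 7 macrophage markers, 3 were also higher in KO (Fcgr1, Lyz2 and Adgre1), and their part in the result was not tested. Stab1 was 1.45 higher (adjusted p = 0.0663) and Colec12 0.61 higher (adjusted p = 0.0696), and the groups did not overlap for 8 members and 39.1% of all genes. The call of Scarb1 was lost without KO stiff 1 (0.89, adjusted p = 0.0506) or KO stiff 2 (0.82, 0.0676), and without the 3 doubted libraries (0.89, 0.103). The other genotype comparisons, in the soft matrix and with IL-4, gave 0 calls among members and among all genes by limma (0% each), with 0 members at an unadjusted p under 0.05, where 1.16% and 2.08% of all genes were. Camkk2 was at 44.2 and 11.7 TPM in WT soft and at 46.6 and 11.5 TPM in KO soft. The soft comparison thus sets alike mixtures of Camkk2 levels against each other and cannot show what the deletion does.

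The difference of the stiff effect between genotypes is tested by the interaction. It was called for 0 members, where 0.974% of all tested genes were, and 3 members had an unadjusted p under 0.05, against 10.9% of all genes. These were Scarb1 (0.91, 95% confidence interval 0.49 to 1.33, adjusted p = 0.0648 by limma), Stab1 (1.44, interval 0.23 to 2.66, adjusted p = 0.345) and Colec12 (0.65, interval 0.13 to 1.17, adjusted p = 0.317). Scarb1 passed without WT stiff 1 (0.76, adjusted p = 0.0486) or WT stiff 2 (1.06, adjusted p = 0.00324). Of the 7 macrophage markers, Fcgr1, an Fc receptor named after its values were seen, was called (2.12, adjusted p = 0.00944), and its part in the members' values was not tested. The calls of these genes in WT and not in KO are therefore not shown to differ between genotypes by the model of the main comparisons, and Camkk2 in KO stiff 1 goes against its label.

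**Figure D4:**
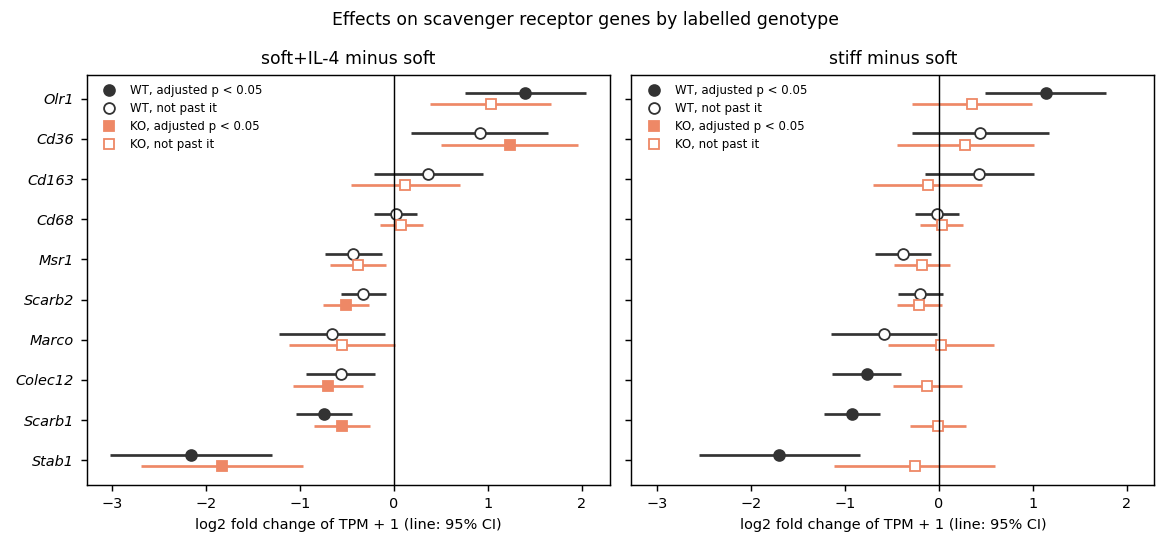
Log2 fold change of TPM + 1 (horizontal axes) of each member for soft+IL-4 minus soft (left) and stiff minus soft (right), by labelled genotype (circles WT, squares KO), with 95% confidence intervals as lines and filled symbols where the adjusted p is under 0.05. On the right, Stab1, Scarb1 and Colec12 are at -1.70, -0.93 and -0.77 for WT and at -0.26, -0.01 and -0.12 for KO.

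The stiff matrix was also compared with IL-4 directly. In BMDM labelled WT this gave 0 calls among members and 0% of all tested genes by limma, with 0 members at an unadjusted p under 0.05 (4.98% of all genes), and the interval for Cd36 was -1.20 to 0.26. Without WT stiff 2, Cd36 was called, at -1.04 (adjusted p = 0.0098). In BMDM labelled KO it gave 0 calls, where 4.03% of all tested genes were called and 7 members had an unadjusted p under 0.05 (17% of all genes). Stab1 was 1.58 higher in KO stiff than in KO soft+IL-4 (adjusted p = 0.0547), Scarb1 0.54 higher (0.0565), Colec12 0.58 higher (0.0950) and Cd36 0.95 lower (log2 difference -0.95, adjusted p = 0.167). When only the compared libraries entered the model, 5 members were called, a setting for which the share of all genes was not computed.

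The ratio of Cd36 to Stab1 shows how the levels of a fatty acid receptor and a clearance receptor stood in each library. It was 5.21 and 3.64 in WT soft, 5.28 and 3.97 in KO soft, 35.7 and 40.5 in WT soft+IL-4 and 37.7 and 41.0 in KO soft+IL-4. In the stiff matrix it was 9.70 and 39.8 in WT and 7.08 and 6.29 in KO. The 4 ratios with IL-4 lay close together, and WT stiff 2 was the 1 library without IL-4 at their level. Both genes are among the members with the largest shifts with IL-4, so the distance between soft and soft+IL-4 ratios follows from the values above and is no further result.

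**Figure D5:**
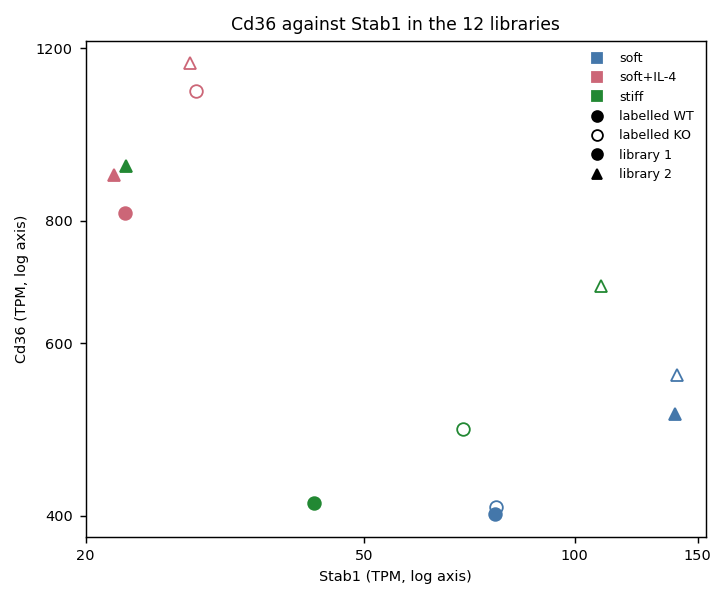
Cd36 (vertical axis) against Stab1 (horizontal axis) in TPM on log axes, 1 point for each of the 12 libraries, coloured by condition, filled for libraries labelled WT and open for KO, with circles for library 1 and triangles for library 2. The 4 soft+IL-4 libraries and WT stiff 2 lie at high Cd36 and low Stab1, and the soft and KO stiff libraries at 69.3 to 140 TPM of Stab1.

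Library number moved with some members. Cd36 and Cd68 were higher in library 2 than in library 1 of all 6 groups, which 3.03% of all tested genes were. The libraries numbered 1 listed 10.7% to 13.4% of genes at 0 and those numbered 2 5.90% to 7.54%, and the part of this difference in the values was not tested.

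Across the 12 libraries, members that fell with IL-4 also varied together. Pearson's r of log2(TPM + 1) was 0.92 for Stab1 and Marco, 0.93 for Scarb1 and Colec12 and 0.88 for Stab1 and Scarb1, and it was -0.90 for both Msr1 and Scarb1 with Olr1. Scarb2 followed the other members that fell less closely, from 0.70 with Scarb1 to 0.87 with Stab1. Cd36 ran from -0.39 with Msr1 to -0.84 with Scarb2 among the members that fell. Cd68 had an r of 0.05 with Stab1 and -0.14 with Olr1. The libraries share their conditions, so these values describe the pattern and carry no p.

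Each member was also set beside the genes whose pattern over the 12 libraries was most like its own. The nearest non-members were F2rl2 (0.972) and Med13l (0.970) for Cd36, Wdfy3 and Gas6 (0.993 each) for Stab1, Axl (0.993) and Gas7 (0.991) for Scarb1 and Ankrd55 (0.985) and Reep4 (0.969) for Olr1. All of these r values are over the same 12 libraries, and genes are not independent of each other. For the class A genes they were Ppfia4 (0.961) and 4931406P16Rik (0.958) with Msr1, Col18a1 and 9930111J21Rik1 (0.963 each) with Marco, and Parp8 (0.983) and Fpr2 (0.978) with Colec12. Scarb2 had Parvg (0.980) and Thbd (0.964), Cd68 had E2f5 (0.926) and Ubqln1 (0.888), and Cd163 had Mapre1 and C2cd2l (0.904 each). The r of Cd68 and Cd163 with their nearest genes was the lowest of the 10.

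Among all tested genes 9.84% rose and 13.1% fell with IL-4, and 2.68% rose and 3.79% fell in the stiff matrix, and the counts of the gene lists stand beside these shares. The list values average both labelled genotypes. In BMDM labelled KO alone, the stiff matrix gave 0 calls in each of the lists below, where 0.0447% of all tested genes were called. Of 21 other genes of the wider scavenger receptor family, 17 were in the table and 12 were tested. With IL-4, 4 rose and 3 fell, with a median log2 fold change of 0.28 against -0.05 for all genes. Mrc1, the mannose receptor and a marker of alternative activation, rose by 1.54 (adjusted p = 0.00238 by limma), and Cxcl16, which also serves as a receptor for phosphatidylserine and oxidised lipoprotein, fell by 0.81 (adjusted p = 7.4e-05). In the stiff matrix 3 rose and 1 fell, with Mrc1 at 1.34 (adjusted p = 0.0153) and Cxcl16 at -0.41 (adjusted p = 0.0102). Split by label, the stiff libraries of Mrc1 held 436 and 198 TPM (WT) against 94.2 and 114 TPM (KO). Its soft libraries spanned 52.7 to 88.9 TPM. Within the stiff matrix, Mrc1 was called lower in KO than in WT by limma. Its interaction of genotype and stiffness was not called (-1.54, adjusted p = 0.269).

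Of 19 tested genes of lipid uptake, storage and efflux, 1 rose and 2 fell with IL-4 (median -0.08), with Abcg1, a cholesterol exporter, at 0.75 (adjusted p = 0.00182) and Acsl1, which activates fatty acids, at -0.57 (adjusted p = 0.0011). In the stiff matrix 0 rose and 1 fell, Acsl1 at -0.34 (adjusted p = 0.0395), with a median of -0.13.

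Of 19 tested transcription factors known to act on scavenger receptor genes, 3 rose and 4 fell with IL-4 (median -0.08). Klf4 rose by 1.06 (adjusted p = 0.0119), and Maf, which encodes c-MAF, fell by 2.35 (adjusted p = 0.000247). In the stiff matrix 1 rose and 1 fell, Klf4 at 1.01 (adjusted p = 0.0383) and Maf at -1.12 (adjusted p = 0.0347). Split by label, the stiff libraries of Klf4 held 71.9 and 26.6 TPM (WT) against 15.4 and 16.4 TPM (KO). Those of Maf held 33.9 and 12.2 TPM (WT) against 54.7 and 69.4 TPM (KO). Soft libraries spanned 11.6 to 13.2 TPM for Klf4 and 68.1 to 91.6 TPM for Maf. Within the stiff matrix, Klf4 was called lower and Maf higher in KO than in WT by limma. The interaction of genotype and stiffness was called for neither (adjusted p = 0.267 and 0.276). Pparg, named after its values were seen for its known role at Cd36, rose by 0.97 with IL-4 (adjusted p = 0.00689) and stood at 0.40 in the stiff matrix (adjusted p = 0.308).

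Of 12 targets of NRF2, the oxidative stress factor that also acts on Cd36, 2 rose and 1 fell with IL-4 (median 0.14). Slc7a11, the cystine transporter, rose by 0.66 (adjusted p = 0.0159), and Sqstm1, an autophagy adaptor, fell by 0.22 (adjusted p = 0.0121). In the stiff matrix 0 rose and 0 fell, with a median of -0.20. Of 10 tested genes that handle haemoglobin and heme, the ligand side of Cd163, 1 rose and 5 fell with IL-4 (median -0.23). Hmox1, heme oxygenase, rose by 0.30 (adjusted p = 0.0400), and Hp, haptoglobin, fell by 2.54 (adjusted p = 1.1e-05). In the stiff matrix 0 rose and 3 fell (median -0.16), with Hp at -1.77 (adjusted p = 0.000403).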

How the data were processed

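RNA of 12 libraries (6 groups of 2) was measured by strand-specific poly-A RNA-seq. The authors deposited TPM values for 14098 genes. The submitters' processing notes name Trim Galore 0.6.7, Salmon 1.4.0 and mm10, whereas the paper's methods describe STAR and featureCounts, so the annotation and the choice of genes are not settled. TPM keeps no read totals, so depth and counting error are unknown. Groups followed the sample labels, and 0 columns were left unused.

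The 11194 genes that reached 1 TPM in 2 or more libraries were tested with limma 3.58.1 (R 4.3.3) on the scale log2(TPM + 1) (1 mean per group, no covariates, eBayes with a trend, Benjamini-Hochberg adjustment over all tested genes in each of 13 comparisons). Averaged comparisons take the mean of the WT and KO differences. Exact tests on 2 against 2 libraries cannot reach 0.05. The code was tested on simulated data. Named were all 10 members, the 2 non-members with the highest Pearson r to each, and per gene list the largest rise and fall past the threshold in each averaged comparison. The members and lists were chosen with earlier results of these data known. Alternatives were a pseudocount of 0.1, no filter, median-of-ratios scaling, only the compared libraries, the replicate number as a block, an added limit of 1 on the size of the log2 fold change, each library left out in turn, and leaving out KO soft 1, KO stiff 1 and WT soft 2. Positions and overlaps come from GENCODE vM21 (GRCm38), and promoters from RefSeq (GRCm38.p6).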

Additional observations from a re-analysis of the deposited data

Results flagged for a closer look

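The effect of the stiff matrix on Hp, the haptoglobin gene whose protein delivers haemoglobin to Cd163, differed between the labelled genotypes. Hp was at 28.7 and 37.7 TPM in WT soft, 2.83 and 3.89 in WT stiff, 30.5 and 35.8 in KO soft, and 16.8 and 28.4 in KO stiff. Its interaction of genotype and stiffness was 2.39 on the log2 scale (adjusted p = 0.0156 by limma), with Camkk2 contradicting the labels of KO soft 1, KO stiff 1 and WT soft 2. The same interaction was 2.12 (adjusted p = 0.00944) for Fcgr1, which was at 133 and 114 TPM in WT soft, 18.7 and 22.6 in WT stiff, 149.7 and 122 in KO soft, and 113 and 92.1 in KO stiff.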

How the results depend on the processing

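No call among the members changed direction under any alternative. The replicate numbers were checked as a pairing: deviations of same-numbered libraries correlated at -0.0526 to 0.314 over 15 pairs of groups. The 3 pairs above 0.1, at 0.283 to 0.314, joined WT soft, KO soft and KO stiff. Genes at 0 were also more frequent in libraries numbered 1 (10.7% to 13.4%) than in those numbered 2 (5.90% to 7.54%). Camkk2 also differed by number in WT soft (44.2 and 11.7 TPM), KO soft (46.6 and 11.5 TPM) and KO stiff (37.7 and 10.0 TPM). In the difference that these groups share, library number and Camkk2 level cannot be told apart. The main fits leave the replicate numbers out. With them as a block, the number of members called was 2 for the averaged stiff comparison (Olr1 added), 4 for IL-4 in WT (Cd36 added, adjusted p = 0.0336), 6 for IL-4 in KO (Olr1 added, adjusted p = 0.0379), 1 for KO stiff against KO soft+IL-4 (Scarb1) and 1 for the genotype by stiffness interaction (Scarb1, adjusted p = 0.0447). A pseudocount of 0.1 gave 2 for the averaged stiff comparison, and median-of-ratios scaling gave 1 for KO stiff against KO soft+IL-4. For IL-4 in KO, Olr1 was gained with a pseudocount of 0.1, no filter, median-of-ratios scaling and only the compared libraries (adjusted p of 0.0340 to 0.0439), Cd36 was lost with no filter (0.0684) and with scaling (0.0511), and Scarb1 was lost with scaling (0.0624). With only the compared libraries in the model, the number was 0 for averaged stiff, 6 for IL-4 in WT, 0 for stiff in WT, 5 for KO stiff against KO soft+IL-4 and 0 for genotype in the stiff matrix. With a log2 change of 1 or more in size asked as well, it was 3 for averaged IL-4, 0 for averaged stiff, 2 for stiff in WT, 2 for IL-4 in KO and 0 for genotype in the stiff matrix. Without KO soft 1, KO stiff 1 and WT soft 2, it was 3 for averaged IL-4, 0 for averaged stiff, 0 for IL-4 in WT, 0 for stiff in WT, 1 for IL-4 in KO and 0 for genotype in the stiff matrix, with fewer libraries in the fit. When 1 library was left out in turn, the number ran from 6 to 8 for averaged IL-4, 0 to 4 for averaged stiff, 0 to 2 for IL-4 in WT, 1 to 4 for stiff in WT, 0 to 2 for IL-4 in KO, 0 to 1 for WT stiff against WT soft+IL-4, 0 to 2 for genotype in the stiff matrix and 0 to 1 for the genotype by stiffness interaction. The library left alone in its group is then assumed to vary like the others. The cause of these shifts was not tested otherwise. Apart from the limit on the size of the change, shares of all genes were not computed under the alternatives. Counts given here and above for the other alternatives therefore show how calls moved and are not results about the members. Under median-of-ratios scaling Cd163 no longer passed the filter on low values. Of 1577 values of single members under the alternatives, 1457 kept their side of the threshold, 89 lost it and 31 gained it. TPM gives no depth, so how far counting error limits Olr1, Marco and Cd163 is unknown.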
